A study of Mus musculus with 24 samples.

Results

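The genes described here encode the matrix metalloproteinases (MMPs), the ADAM and ADAMTS proteinases and the tissue inhibitors of metalloproteinases (TIMPs) of the mouse. They were taken as every row whose Ensembl identifier carries, in GENCODE M21, a protein-coding symbol made of Mmp, Adam, Adamts or Timp followed directly by a digit. This gave 78 of the 55421 genes in the count tables: 22 MMP genes, 33 ADAM genes, 19 ADAMTS genes and 4 TIMP genes. Their mRNA was measured by RNA sequencing of uninjured carotid arteries from C57BL/6 mice labelled as 9 weeks old. The 24 libraries formed 4 groups of 6: ovariectomized mice given vehicle (titled OVX), mice given estradiol (E2), mice given estetrol (E4) and mice given tamoxifen (TAM). The 6 E4 libraries carry E4 in their titles but a placebo entry in their treatment field, and they were grouped by title. According to the study's methods all of the mice given vehicle, E2 or E4 had been ovariectomized and the estrogens were released from subcutaneous cholesterol pellets that held a larger amount of E4 than of E2, an amount the study set so that both would act about equally strongly as estrogens. E4 was therefore compared with E2 at unequal amounts chosen for like estrogenic activity. The design text gives 3 weeks of treatment, whereas the study's methods give a shorter course for the pellets. The route and dose of tamoxifen, and whether the mice given it were ovariectomized, are not given in the sources used here. E4 differs from E2 by additional hydroxyl groups on the steroid D ring, and tamoxifen is a nonsteroidal modulator of the estrogen receptors. Whether each library came from 1 mouse is likewise not given, so p-values measure the spread between these libraries.

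MMPs are zinc-dependent endopeptidases that are made as inactive precursors and, once activated, cleave collagens, elastin, proteoglycans and other matrix proteins. ADAMs are mostly membrane-anchored and release the outer part of growth factors, cytokines and receptors, whereas ADAMTS enzymes are secreted and act on procollagens, proteoglycans and fibrillin-rich microfibrils. TIMPs bind the catalytic site of these enzymes, and the balance of proteinases and inhibitors is a long-studied feature of remodeling in the arterial wall.

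The libraries held 24647246 to 64221401 assigned fragments, with a median of 45156106. Summed markers of smooth muscle (2360 to 8426 CPM, the count scaled to library size) and of endothelium (586 to 1254 CPM) were present in every library. The summed level of 15 sympathetic ganglion markers was 67.1 CPM in vehicle library C5 and 342 CPM in TAM library C35, against 2953 to 11669 CPM in the other 22 libraries, and the counts of changed members are also given without them. All 8 macrophage markers were higher with E2 than with vehicle (summed level 891 to 1376 CPM against 534 to 958 CPM), and 7 of 8 B cell markers were lower with E4 than with vehicle (3.69 to 8.04 CPM against 6.19 to 39.4 CPM). Of the 8 fibroblast markers, 5 (Col1a1, Dpt, Lum, Mfap5 and Pi16) were lower with E4 than with vehicle, although the summed level overlapped (5005 to 8119 CPM against 5917 to 9693 CPM). No marker of these 6 lists was at 0 in all libraries of a group. In single libraries, E2 C9 held 336 summed CPM of the T cell list and E4 C38 held 3025 summed CPM of the thyroid list, far above the others, and 2 of the 8 thyroid markers were at 0 in the E2 and in the TAM group. Carotid tissue is a mixture, so fewer cells of a type and less RNA per cell cannot be told apart.

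**Figure D1:**
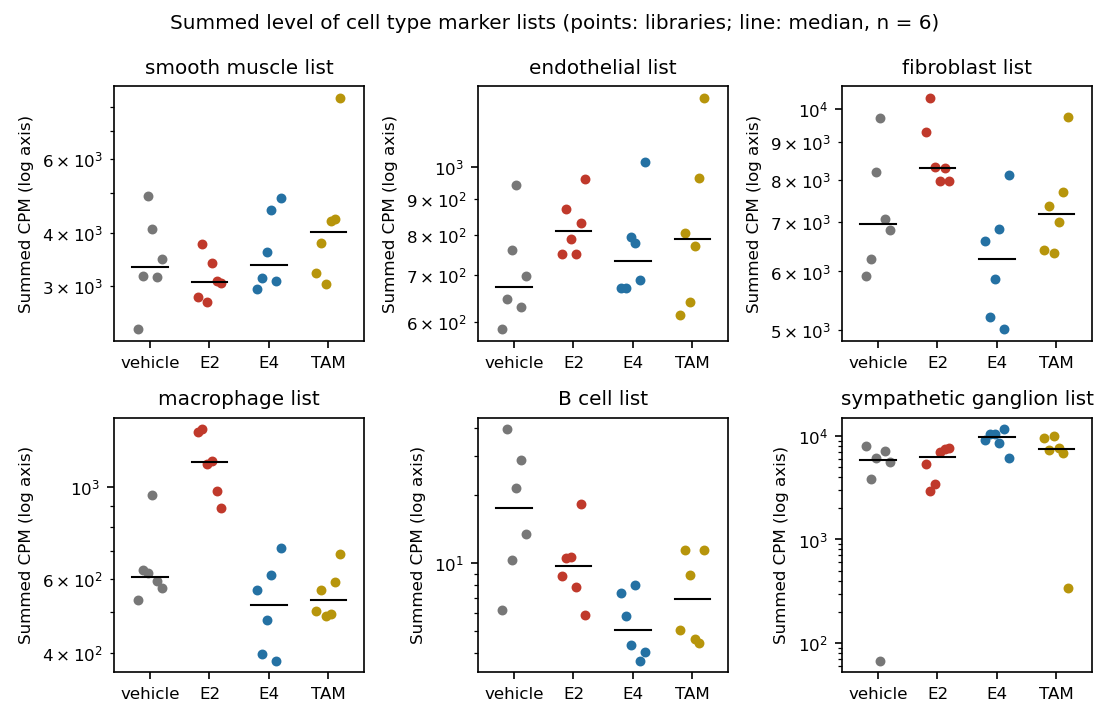
Summed CPM (log axis) of 6 marker lists in each of the 24 libraries, by group; points are libraries and lines are medians. The 6 E2 libraries lie between 891 and 1376 CPM for the macrophage list, above the 6 E4 (382 to 711 CPM) and the 6 TAM libraries (490 to 691 CPM), and vehicle C5 and TAM C35 lie far below the rest for the ganglion list.

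Of the 78 genes, 58 had enough counts to be tested in 1 edgeR quasi-likelihood fit of all 24 libraries, and 46 had a mean of at least 1 CPM. Among the 20 that were not tested, 9 had no count in any library (Adam20, Adam24, Adam25, Adam26a, Adam26b, Adam29, Adam34, Mmp1b and Mmp20), where a limit of 3 counts corresponds to 0.0452 to 0.121 CPM, depending on the library. The remaining 11 had low counts. Among them Adamts13, which cleaves von Willebrand factor, and Adam3 had counts in all 24 libraries, with at most 15 and 16, whereas Mmp7 (matrilysin) had a count in 1 library and Mmp21 in 13. Most of the untested genes are ADAMs: 15 of the 33 ADAM genes were not tested, against 4 of the 22 MMP genes and 1 of the 19 ADAMTS genes.

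A pair of inhibitors had the highest levels on a per-length scale. Timp2 was the highest at 191 CPM per kb of exon over all libraries, followed by Timp3 at 121 CPM per kb and the gelatinase Mmp2 at 69.0 CPM per kb. These 3 genes made up 55.6% of the summed CPM per kb of the 78 genes, and the 10 highest made up 75.3%. Adamts10 (22.5 CPM per kb), Adam10 (21.4), Adam9 (20.2) and Adamts1 (19.8) came next and lay close together. Timp1 (9.00 CPM per kb) and Timp4 (3.84 CPM per kb) were expressed at much lower levels than the other inhibitors. Mmp3 was at 12.3 CPM per kb, whereas its neighbour Mmp10 was at 0.172 CPM per kb and the neutrophil collagenase Mmp8 at 0.123 CPM per kb. The spread between libraries of a group was similar in size for the 4 groups: over the 46 genes with at least 1 CPM, the median coefficient of variation was 20.3% with vehicle, 14.7% with E2, 15.9% with E4 and 19.8% with TAM.

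**Figure D2:**
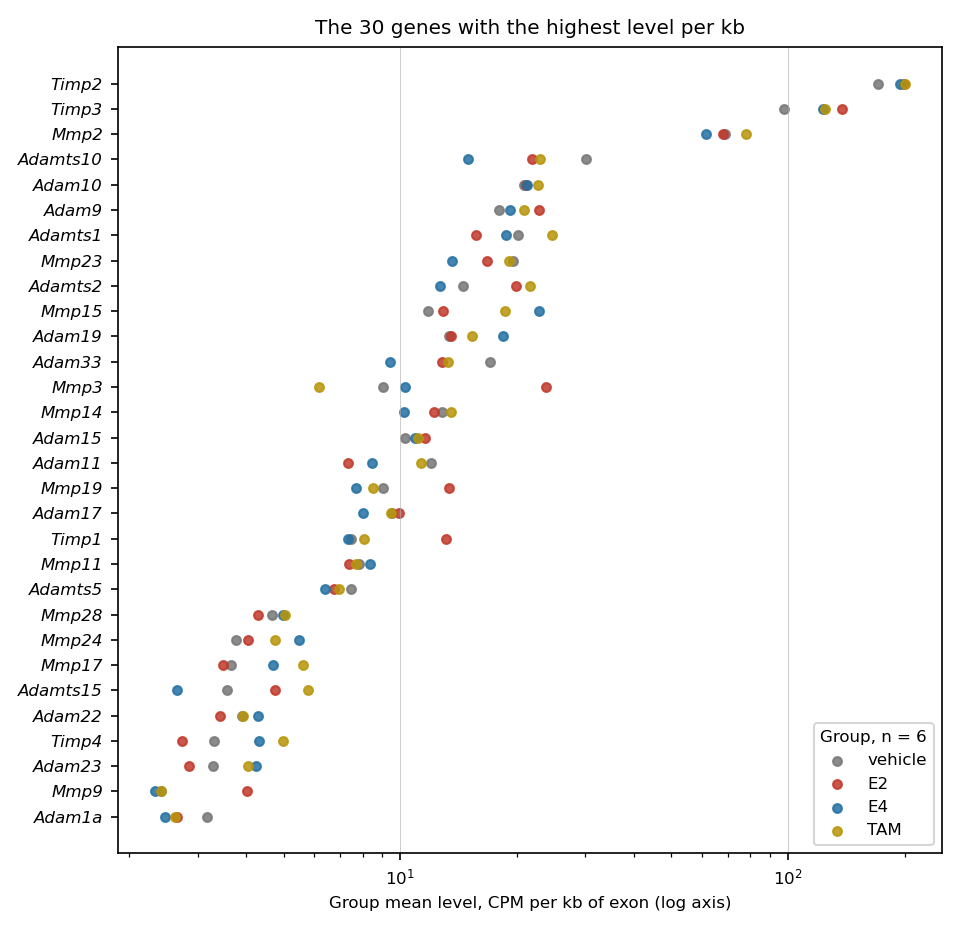
Group mean level (CPM per kb of exon, log axis) of the 30 genes with the highest level per kb, n = 6 libraries per group. Timp2, Timp3 and Mmp2 lie above the rest in all 4 groups, and among the 30 genes Mmp3 has the widest ratio between group means, with E2 highest and TAM lowest.

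A gene was said to have changed when its Benjamini-Hochberg adjusted p over all 25056 tested genes was under 0.05, and to be regulated when its log2 fold change also exceeded 1 in absolute value. With E2, 7 of 58 genes changed against vehicle (12.1%, where 4.14% of all tested genes did): Mmp3, Mmp10, Mmp19, Timp1, Timp3 and Adamts19 rose (2.87% of all genes did) and Adam11 fell (1.27% of all genes did). Of these, Mmp3, Mmp10 and Adamts19 were regulated (1.27% of all genes). With E4, 16 of 58 changed against vehicle (27.6%, against 22.0% of all genes), 14 of them downward (12.5% of all genes fell) and only Mmp15 and Timp4 upward (9.5% of all genes rose). With TAM, Adamts15 and Timp4 rose and no member fell (3.45% of the 58, against 2.23% of all genes, of which 1.3% rose and 0.93% fell). Neither was regulated (0.315% of all genes), and 10 members had an unadjusted p under 0.05. The E2 share was above its background, whereas the E4 and TAM shares were close to theirs. The median log2 fold change of the 58 genes was 0.00 with E2, -0.18 with E4 and -0.01 with TAM, where the median of all tested genes was 0.01, -0.01 and 0.00.

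Between treatments, E4 differed from E2 in 15 of 58 genes (25.9%, against 12.6% of all genes): Timp4 was higher with E4 (3.55% of all genes were), and Mmp3, Mmp9, Mmp10, Mmp19, Timp1, Adam5, Adam8, Adam17, Adamts2, Adamts4, Adamts6, Adamts15, Adamts16 and Adamts19 were lower (9.05% of all genes were), and Mmp3, Mmp10 and Adamts19 were regulated (2.49%). TAM differed from E2 in 9 genes (15.5%, against 6.4%), with Adam11, Adamts17, Mmp17 and Timp4 higher (1.92% of all genes) and Mmp3, Mmp9, Mmp10, Mmp19 and Timp1 lower (4.48%), of which Mmp3 and Mmp10 were regulated (1.65%). Only Adamts15 and Adamts2 differed between TAM and E4, both being higher with TAM (3.45%, against 0.343%, with 0.172% of all genes higher), and Adamts15 was regulated (0.2%). The CPM ranges of the groups did not overlap in 4 members for E2 against vehicle (2.82% of all genes), in 9 for E4 against vehicle (9.38%), in 2 for TAM against vehicle (2.58%), in 6 for E4 against E2 (6.16%), in 5 for TAM against E2 (4.23%) and in 2 for TAM against E4 (0.922%). The 3 comparisons with vehicle share the vehicle libraries, and the comparisons with E2 share the E2 libraries, so their lists are not independent of each other. In all, 27 of the 58 tested genes changed in at least 1 of the 6 comparisons (29.6% of all tested genes did) and 31 in none, among them Timp2, Mmp2, Adam9, Adam10, Adam15, Adamts1 and Adamts5. Without vehicle C5 and TAM C35, all 7 genes still passed for E2 against vehicle, 12 of 16 for E4 against vehicle (lost: Mmp14, Adamts9, Adamts15 and Adamts16), both for TAM against vehicle, all 15 for E4 against E2, all 9 for TAM against E2 and 1 of 2 for TAM against E4 (lost: Adamts2).

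**Figure D3:**
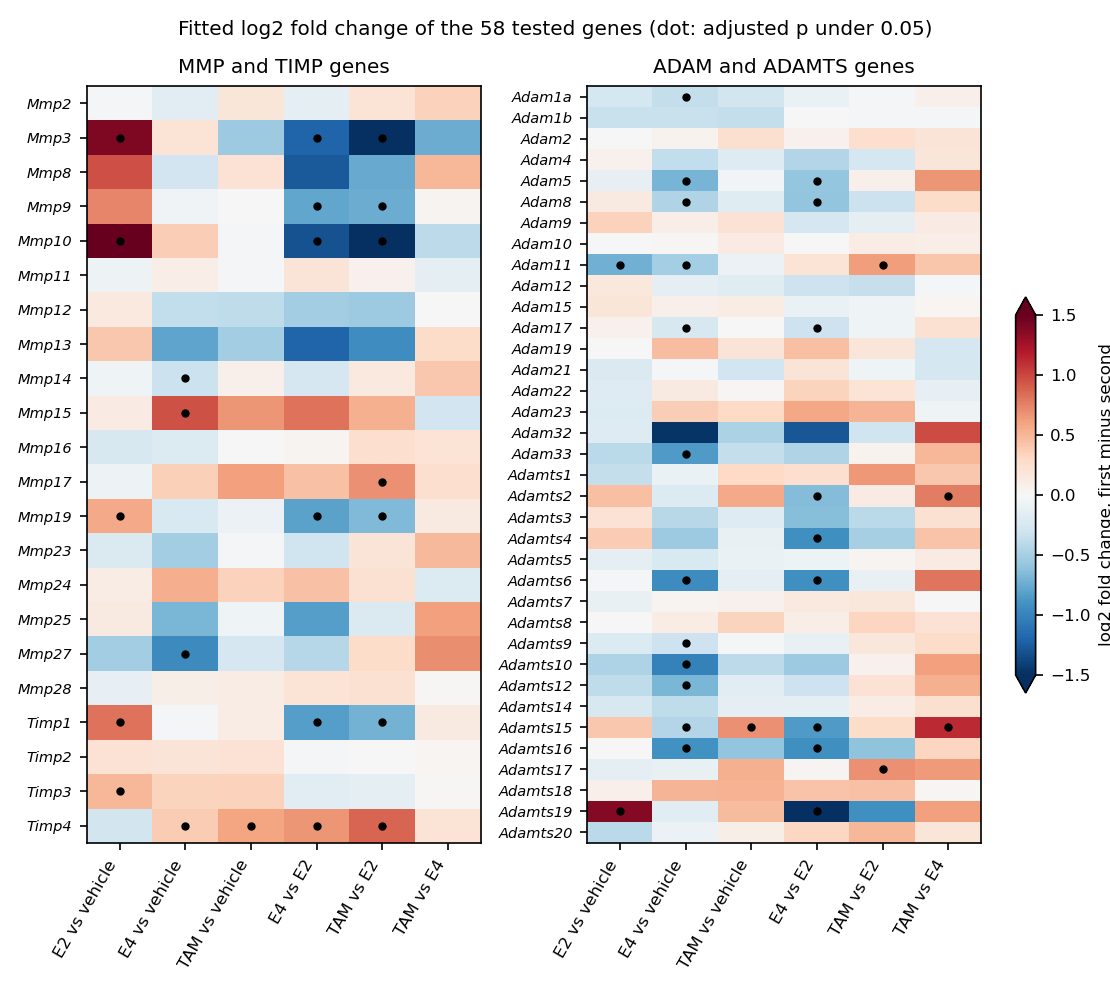
Fitted log2 fold change (first group minus second group; colour scale ends at 1.5) of the 58 tested genes in the 6 comparisons, with a dot where the adjusted p was under 0.05. The column of E4 against vehicle holds 16 dots, 14 on genes that fell, and the column of E2 against vehicle holds 7, with Mmp10, Mmp3 and Adamts19 having the largest values.

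Stromelysins gave the largest log2 fold changes among the members that passed for E2 against vehicle and for TAM against E2, whereas none passed for E4 or TAM against vehicle. Mmp3 (stromelysin 1, ENSMUSG00000043613) cleaves proteoglycans and several collagens and activates other MMP precursors. Its level ranged from 13.7 to 21.4 CPM in the vehicle libraries (median 14.2), from 32.1 to 61.2 CPM with E2 (median 38.5), from 13 to 22.7 CPM with E4 (median 18) and from 7.02 to 15.3 CPM with TAM (median 11.1). Every E2 library was thus above every library of the other 3 groups. Relative to vehicle the rise with E2 was 2.63-fold (log2 1.40 ± 0.18, SE, edgeR adjusted p = 2.56e-05), and the level with E2 was 2.30-fold that with E4 (log2 difference -1.20 ± 0.18, edgeR adjusted p = 0.000291) and 3.84-fold that with TAM (-1.94 ± 0.19, edgeR adjusted p = 3.91e-07). The E2 rise passed in all 38 alternative fits, from log2 0.79 with the macrophage list as a covariate to 1.59 in the second series of animal numbers. The lower level with TAM than with E2 passed in all 37 fits.

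Mmp10 (stromelysin 2, ENSMUSG00000047562), a close relative of Mmp3, was under 1 CPM in every library, with the highest mean in the E2 group. It ranged from 0.0425 to 0.418 CPM with vehicle, from 0.305 to 0.992 CPM with E2, from 0.110 to 0.324 CPM with E4 and from 0.0983 to 0.319 CPM with TAM, and only the E2 group had at least 10 counts in every library. Vehicle and E2 overlapped only through vehicle library C5, the highest of its group. The fitted difference was 1.68 ± 0.38 (log2, SE) for E2 against vehicle, with an edgeR adjusted p of 0.00881, and 2.08 without C5 and TAM C35. Mmp11, Mmp12 (macrophage elastase) and the untested Mmp7 complete this group, and neither tested gene changed in any comparison.

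Among the members, Mmp3 and Mmp10 are next to each other in a cluster of 9 MMP genes on chromosome 9 (GRCm38). Their order is Mmp13, Mmp12, Mmp1b, Mmp3, Mmp10, Mmp8, Mmp27, Mmp20 and Mmp7, and genes that are not members were not placed. The cluster runs from the start of Mmp13 at position 7272514 to the end of Mmp7 at 7699585, with Mmp3 at 7445822 to 7455975 and Mmp10 at 7502352 to 7510240. Mmp12, Mmp13 and Mmp8 did not change in any comparison and Mmp27 changed only with E4, in the downward direction. The promoters of Mmp3 and Mmp10 are shown because these neighbours rose together with E2, and that of Timp1, an inhibitor that also rose, is shown beside them. They are RefSeq sequences of build GRCm38.p6, plus strand, from 250 bases before to 50 after the start, at chr9:7445572-7445871, chr9:7502092-7502391 and chrX:20869916-20870215. Capitals mark matches to the AP-1 motif TGANTCA and to GGTCA, the core of an estrogen response element, on either strand.
Mmp3: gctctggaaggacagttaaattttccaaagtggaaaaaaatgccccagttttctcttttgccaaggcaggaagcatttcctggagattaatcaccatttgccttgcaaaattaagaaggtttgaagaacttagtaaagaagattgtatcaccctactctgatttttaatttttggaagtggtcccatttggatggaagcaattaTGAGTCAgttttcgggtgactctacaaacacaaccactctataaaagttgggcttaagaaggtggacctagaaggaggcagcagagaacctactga
Mmp10: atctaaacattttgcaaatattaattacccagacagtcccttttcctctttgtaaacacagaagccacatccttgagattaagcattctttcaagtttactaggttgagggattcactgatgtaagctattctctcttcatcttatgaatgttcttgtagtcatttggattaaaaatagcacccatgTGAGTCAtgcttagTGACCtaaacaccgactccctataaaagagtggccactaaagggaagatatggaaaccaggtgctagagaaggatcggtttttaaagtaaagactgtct
Timp1: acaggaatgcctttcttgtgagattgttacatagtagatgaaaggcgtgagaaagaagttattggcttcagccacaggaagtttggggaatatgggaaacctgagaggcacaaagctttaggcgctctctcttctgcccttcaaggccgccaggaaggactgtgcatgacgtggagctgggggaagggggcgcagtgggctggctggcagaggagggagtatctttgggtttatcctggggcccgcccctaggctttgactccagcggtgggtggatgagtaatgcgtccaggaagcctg
Both stromelysin promoters held 1 AP-1 match, at -46 in Mmp3 and at -63 in Mmp10 relative to the RefSeq start. Mmp10 also held a GGTCA core, read on the opposite strand at -49, and the Timp1 window held no exact match to either motif. Only exact letters were searched, so a variant such as the tgagtaa of the Timp1 window is not marked. The AP-1 letters were found in 11 of the 48 members present in the promoter table (22.9%) and in 7.89% of all 27025 promoters. Of these 11, only Mmp3 and Mmp10 changed in any comparison, and Adam20, Adam25, Adam29, Mmp1b, Mmp20 and Mmp7 had too few counts to be tested. The GGTCA core stood in 13 of 48 (27.1%) against 40.1% of all, and the full palindromic estrogen response element in none of the 48 and in 0.0629% of all promoters. A match of letters is a description of the sequence and not evidence of binding, and 30 members, Mmp19 among them, were not in the table.

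Among the other MMPs, Mmp19, a broadly acting secreted MMP also found in macrophages, was likewise highest with E2. Its level was 27.7 to 46.5 CPM with vehicle (median 29.3), 39.8 to 55.9 CPM with E2 (48.6), 21.5 to 34.9 CPM with E4 (26) and 27.5 to 34.4 CPM with TAM (29.5). The E2 libraries lay above all E4 and TAM libraries, and overlapped with vehicle only through library C5. The rise against vehicle was 1.48-fold (log2 0.57 ± 0.13, edgeR adjusted p = 0.00957), and Mmp19 was lower with E4 than with E2 by -0.80 ± 0.13 and with TAM by -0.66 ± 0.13 (edgeR adjusted p = 0.000495 and 0.00241). With the macrophage list as a covariate the estimate against vehicle was -0.03 and did not pass, nor did the difference between E4 and E2. In that fit list and treatment cannot be told apart. Of the exon bases of Mmp19 28.3% are shared with another annotated gene.

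The gelatinases cleave denatured collagen and basement membrane. Mmp9, an inducible gelatinase of leukocytes, had a median of 7.89 CPM with vehicle (5.76 to 14.5), 13.7 with E2 (9.26 to 20.7), 8.45 with E4 (5.05 to 11.4) and 7.80 with TAM (6.41 to 12.4). The difference between E2 and vehicle was 0.73 on the log2 scale (95% interval 0.29 to 1.17) and did not pass, with an edgeR adjusted p of 0.0665. Mmp9 was lower with E4 than with E2 by -0.78 ± 0.22 and with TAM than with E2 by -0.74 ± 0.22 (edgeR adjusted p = 0.0259 and 0.0487). The latter call was lost in 17 of 24 fits that left out 1 library. Of 6 tested neutrophil markers, 3 (Camp, Ngp and S100a9) were also lower with E4 than with E2 (9.05% of all genes were). E2 C6, with the highest summed neutrophil level (66.2 CPM), had the highest Mmp9 level. However, E2 C9, the next highest (29.1 CPM), had 12.5 CPM of Mmp9, and E2 C29, the lowest E2 library (5.2 CPM), had 13.6 CPM. With the macrophage list as a covariate the E4 against E2 estimate of Mmp9 was 0.58 and did not pass. The part of neutrophils and macrophages was not tested. Mmp2, the constitutive gelatinase of mesenchymal cells, did not change in any comparison, and its interval for E2 against vehicle was -0.19 to 0.16.

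Of the 6 membrane-type MMPs, 2 changed with E4 (22.0% of all genes did). Mmp15 (membrane type 2) was at 27.2 to 93.8 CPM with vehicle, at 31.7 to 110 CPM with E2, at 109 to 143 CPM with E4 and at 52.3 to 131 CPM with TAM. The vehicle and E4 groups did not overlap, and the rise was 1.93-fold (log2 0.95 ± 0.28, edgeR adjusted p = 0.0197). Without vehicle C3 it was 0.83 and no longer passed (edgeR adjusted p = 0.0556). Ganglion sums had a higher median with E4 than with vehicle (9809 against 5867 CPM), though the ranges overlapped. Of the ganglion markers 2 of 15 (Chga and Gata3) and of the glia markers 2 of 8 (Foxd3 and Sox10) rose, where 9.5% of all genes did. Mmp15 was lowest of its group in vehicle C5 and in TAM C35. The estimate was 0.80 without these 2 libraries and 0.57 with the ganglion list as a covariate, and it passed in both fits, but the call was lost with the fibroblast list (0.38) and with the B cell list (0.53). Mmp14 (membrane type 1), which activates the Mmp2 precursor, was slightly lower with E4 (60.9 ± 9.71 CPM against 76.2 ± 14.9 CPM with vehicle, SD, n = 6), with a log2 difference of -0.32 ± 0.11 (edgeR adjusted p = 0.0357). This call was lost in 7 of 24 fits that left out 1 library (-0.32 to -0.21), among them that without vehicle C5. It was also lost with the ganglion (-0.20), macrophage (-0.18) and fibroblast lists (-0.07), and with the B cell list. Mmp17 (membrane type 4) was higher with TAM than with E2 (37.0 ± 9.35 against 23.0 ± 4.33 CPM, log2 0.69 ± 0.17, edgeR adjusted p = 0.0136), and TAM C35 had the highest value, 55.3 CPM. Without C5 and C35 the difference was 0.54 and still passed. Mmp27, of low level, fell with E4 from a median of 3.29 to 1.59 CPM (log2 -0.95 ± 0.25, edgeR adjusted p = 0.0103), a call lost with the fibroblast (-0.39) and B cell lists (-0.66). The collagenases Mmp8 and Mmp13 were tested at under 1 CPM and did not change.

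Every change of a TIMP that passed against vehicle was a rise: 2 of 4 rose with E2, 1 with E4 and 1 with TAM (2.87%, 9.5% and 1.3% of all genes rose). Timp1, the inducible TIMP, was at 5.12 to 9.01 CPM with vehicle (median 6.16), 7.71 to 17.3 CPM with E2 (11.4), 4.05 to 8.86 CPM with E4 (6.41) and 5.09 to 10.2 CPM with TAM (6.92). The E2 libraries overlapped with each other group at the lower end. Without vehicle C2, C24 or C25 or without E2 C8 the rise was 0.67 to 0.77 and no longer passed. The rise with E2 was 1.75-fold (log2 0.81 ± 0.20, edgeR adjusted p = 0.0208), and Timp1 was lower with E4 than with E2 by -0.83 ± 0.20 (edgeR adjusted p = 0.0117) and with TAM than with E2 by -0.71 ± 0.20 (edgeR adjusted p = 0.0383). Timp3, a matrix-bound TIMP that also inhibits ADAM17, was at 796 ± 150 CPM with vehicle and 1128 ± 136 CPM with E2 (SD, n = 6, log2 0.50 ± 0.14, edgeR adjusted p = 0.0460). The groups did not overlap, but the highest vehicle and the lowest E2 library both came to 987 CPM after rounding, and 21.3% of the exon bases of Timp3 are shared with another gene. The call was lost in 17 of 24 fits that left out 1 library, where the estimate was 0.41 to 0.52. With the macrophage list as a covariate the E2 estimates against vehicle were -0.16 for Timp1 and 0.07 for Timp3. Timp1 was then at 0.39 for E4 against E2, and none of these passed. In that fit list and treatment cannot be told apart.

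Timp4, an inhibitor typical of cardiovascular tissue, showed another order. It was at 18.2 to 22.6 CPM with vehicle (median 18.9), 13 to 19.5 CPM with E2 (15.8), 16.3 to 30.8 CPM with E4 (26.2) and 24.2 to 33.4 CPM with TAM (29.5). All 6 TAM libraries were above all vehicle and all E2 libraries. Against vehicle it rose 1.51-fold with TAM (log2 0.59 ± 0.12, edgeR adjusted p = 0.0195) and 1.31-fold with E4 (log2 0.38 ± 0.12, edgeR adjusted p = 0.0302), and with E2 it did not pass. The TAM call was lost without vehicle C3 or TAM C33 (0.55 to 0.58), and the E4 call without vehicle C3 or C24 or without E4 C19, C20 or C36 (0.32 to 0.37). TAM exceeded E2 by 0.87 ± 0.12 and E4 exceeded E2 by 0.66 ± 0.12 (edgeR adjusted p = 9.24e-05 and 0.00167). Timp2, which takes part in Mmp2 activation, was at 667 ± 112 CPM with vehicle and 776 ± 34.2 CPM with E2, and did not change in any comparison with vehicle (edgeR adjusted p = 0.355, 0.227 and 0.258 for E2, E4 and TAM).

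**Figure D4:**
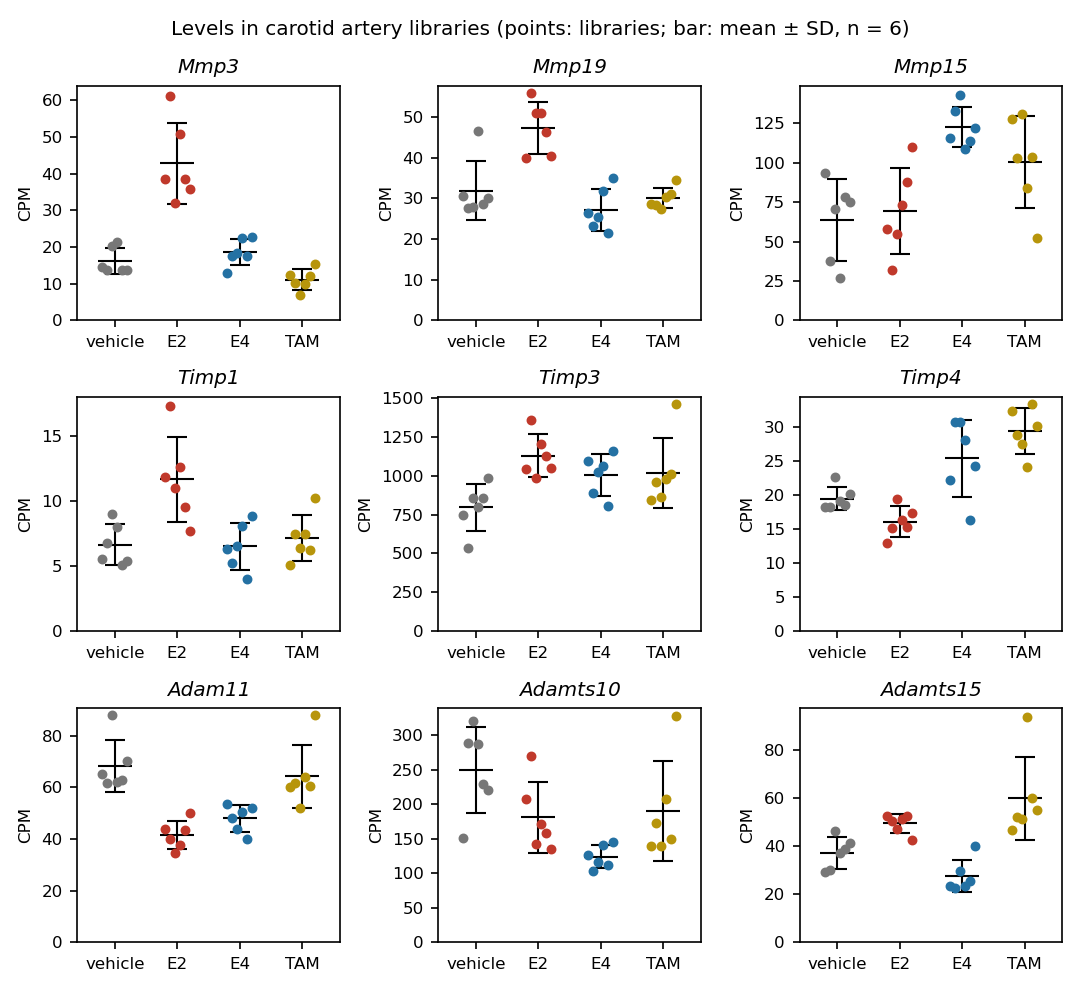
Level (CPM, axes from 0) of 9 genes in each library by group; points are libraries and bars are mean ± SD, n = 6. Mmp3 is higher in all E2 libraries than in all others, Adam11 is lower in all E2 and E4 libraries than in all vehicle libraries, Adamts10 is lower in all E4 than in all vehicle libraries, and Timp4 is higher in all TAM libraries than in all vehicle libraries.

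Of the 8 tested ADAMs with a known somatic proteinase function, none changed with E2 or TAM against vehicle and Adam17, Adam33 and Adam8 fell with E4, where 4.14% and 2.23% of all genes changed with E2 and TAM and 12.5% fell with E4. Adam17, the sheddase of tumor necrosis factor and of ligands of the epidermal growth factor receptor, fell slightly, from 68.0 ± 4.57 CPM to 57.4 ± 3.94 CPM (SD, n = 6, log2 -0.24 ± 0.07, edgeR adjusted p = 0.0166). The call was lost with the ganglion (-0.17), macrophage (-0.17), fibroblast (-0.10) and B cell lists (-0.22). Adam33, an ADAM of mesenchymal and smooth muscle cells, fell from a median of 95.1 CPM (53.8 to 117) to 49.8 CPM (41.0 to 60.9), which was log2 -0.85 ± 0.21 (edgeR adjusted p = 0.00802). Its groups overlapped through vehicle library C2, and the call was lost with the fibroblast (-0.27) and B cell lists (-0.52). Adam8, an ADAM of leukocytes, went from 7.10 ± 1.21 CPM to 5.20 ± 0.659 CPM (log2 -0.45 ± 0.12, edgeR adjusted p = 0.0138) with no overlap, and the call was lost with the fibroblast (-0.41) and B cell lists (-0.15). Adam17 and Adam8 were also lower with E4 than with E2. Adam10, the constitutive sheddase of Notch receptors and cadherins, stayed at means of 103 to 111 CPM in the 4 groups, and its log2 intervals against vehicle lay within -0.17 to 0.20 for E2, -0.16 to 0.21 for E4 and -0.07 to 0.30 for TAM. Adam15 did not change in any comparison.

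Adam11 (ENSMUSG00000020926), which has no catalytic site and is known from neurons, fell with both estrogens. It was at 61.8 to 88.0 CPM with vehicle (median 63.8), 34.4 to 49.9 CPM with E2 (41.7), 39.9 to 53.6 CPM with E4 (49.3) and 51.9 to 87.8 CPM with TAM (61.0). No E2 or E4 library reached the lowest vehicle library, and no E2 library reached the lowest TAM library. The fall was -0.72 ± 0.12 with E2 (edgeR adjusted p = 0.000331) and -0.51 ± 0.12 with E4 (edgeR adjusted p = 0.00453), and TAM was above E2 by 0.63 ± 0.12 (edgeR adjusted p = 0.00127), which was 0.53 without C5 and C35 and still passed. Vehicle C5 and TAM C35, with hardly any ganglion transcripts, had 61.9 and 87.8 CPM of Adam11, which was within and above the range of their groups. With the ganglion list as a covariate the fall with E2 was -0.70 and that with E4 was -0.47, and both passed. The E4 call was lost with the fibroblast list (-0.34). It was also lost with the B cell list, although the estimate (-0.52) was not smaller in size. Adam22 and Adam23, the related neural ADAMs, did not change in any comparison. Both were lowest of their group in vehicle C5 and in TAM C35. The E4 and E2 ranges of Adam23 did not overlap (66.1 to 89.4 against 33.7 to 62.2 CPM). Among ADAMs of mainly reproductive tissue, Adam5 (log2 -0.70 ± 0.18, edgeR adjusted p = 0.00984) and Adam1a (-0.36 ± 0.09, edgeR adjusted p = 0.0110) fell with E4, and 63.7% of the exon bases of Adam1a are shared with another gene.

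Of the 18 tested ADAMTS genes, 6 fell with E4 against vehicle (12.5% of all genes fell) and none rose. Adamts10, which associates with fibrillin microfibrils, was the only member regulated with E4 (2.51% of all genes were): it was at 151 to 321 CPM with vehicle (median 258) and at 104 to 145 CPM with E4 (121), with no overlap. The fall was 2.01-fold (log2 -1.01 ± 0.21, edgeR adjusted p = 0.00265). It passed but was no longer regulated without C5 and C35 (-0.95) or with the ganglion (-0.78) or macrophage list (-0.79) as a covariate, and the call was lost with the fibroblast list (-0.44), of which 5 of 8 markers fell with E4, and with the B cell list (-0.66). With E2 (135 to 270 CPM) and TAM (140 to 328 CPM) the difference from vehicle did not pass. Its relative Adamts6 fell from a median of 22.4 to 10.6 CPM (log2 -0.94 ± 0.26, edgeR adjusted p = 0.0136), so that both fibrillin-associated genes were lower with E4. The Adamts6 call was lost with the fibroblast (-0.27), macrophage (-0.69) and B cell lists (-0.46). Adamts12, which cleaves cartilage oligomeric matrix protein, went from 28.5 ± 5.99 to 17.7 ± 3.13 CPM (SD, n = 6, log2 -0.69 ± 0.14, edgeR adjusted p = 0.00263), with no overlap, and the call was lost with the fibroblast (-0.43) and B cell lists (-0.59). Adamts16 fell by 0.91 on the log2 scale (SE 0.30, edgeR adjusted p = 0.0331), but vehicle C5 held 6.02 CPM against 1.43 to 2.31 CPM in the other vehicle libraries, and without C5 the difference was -0.44 and did not pass.

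Adamts15, which cleaves versican and aggrecan, separated the treatments most clearly among the ADAMTS genes. It was at 29.1 to 46.4 CPM with vehicle (median 37.9), 42.6 to 52.4 CPM with E2 (50.8), 22.5 to 40.0 CPM with E4 (24.5) and 46.8 to 93.6 CPM with TAM (53.5). The TAM libraries lay above all vehicle and E4 libraries, although the lowest of them exceeded the highest vehicle library only slightly. TAM exceeded vehicle by 0.69 ± 0.16 (edgeR adjusted p = 0.0278, lost without vehicle C3, TAM C32 or TAM C33, at 0.51 to 0.69) and E4 by 1.12 ± 0.16 (edgeR adjusted p = 0.000616), and E4 was below E2 by -0.85 ± 0.16 (edgeR adjusted p = 0.00155). The fall with E4 against vehicle (-0.44 ± 0.16, edgeR adjusted p = 0.0499) passed in only 8 of 38 alternative fits. Adamts2, the main procollagen N-proteinase, was at 136 ± 31.8 CPM with vehicle, 186 ± 27.3 with E2, 118 ± 27.4 with E4 and 201 ± 48.7 with TAM. It was lower with E4 than with E2 (-0.65 ± 0.17, edgeR adjusted p = 0.0162) and higher with TAM than with E4 (0.77 ± 0.17, edgeR adjusted p = 0.0452), and the latter call was lost in 17 of 24 fits that left out 1 library. Adamts4, an aggrecanase, was lower with E4 than with E2 (-0.92 ± 0.23, edgeR adjusted p = 0.0117), whereas Adamts1 and Adamts5 did not change in any comparison. Adamts19, at 0.250 to 0.780 CPM with E2 and 0.0766 to 0.300 CPM with vehicle, rose with E2 (log2 1.38 ± 0.36, edgeR adjusted p = 0.0280), with at least 10 counts per library in the E2 group only. This call was lost without vehicle C3, C4, C5 or C25 or without E2 C9 or C26 (1.20 to 1.40).

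Other genes of these pathways are given by list, to be read against all tested genes, of which 2.87% rose and 1.27% fell with E2, 9.5% rose and 12.5% fell with E4, and 1.3% rose and 0.93% fell with TAM. Among 19 tested activators and regulators of the proteinases, Lrp1, Pcsk5 and Tfpi2 rose with E2. With E4, A2m, Furin, Lrp1 and Pcsk5 rose and Pcsk6, Plau and Thbs2 fell, and with TAM only Thbs1 rose. Without C5 and C35, Pcsk6 (-0.30) and Plau (-0.42) with E4 and Thbs1 with TAM (0.62) no longer passed. Of 14 tested ADAM partners, Lgi1, a secreted ligand of ADAM11, ADAM22 and ADAM23, fell with E2 from 25.3 to 17.0 CPM (log2 -0.58 ± 0.14, edgeR adjusted p = 0.0129), and with E4 Frmd8 and Sh3pxd2b rose. Of 16 ADAM substrates, Dll1, a Notch ligand, rose with E2 from 5.65 to 13.4 CPM (log2 1.24 ± 0.15, edgeR adjusted p = 1.13e-05), Il6ra rose and Jag1 fell with E2, App, Cx3cl1, Notch1 and Tgfa rose and Jag1 and Tnf fell with E4, and none changed with TAM. Tgfa (0.43) no longer passed without C5 and C35.

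Among 20 matrix substrates, 6 fell with E4 (Col1a1, Col1a2, Col3a1, Comp, Eln and Sparc) and Col4a2 rose. Of the 8 fibroblast markers, 5 fell in the same comparison, Col1a1 being on both lists, and the part of these cells in the fall of the matrix genes was not tested. Col3a1, a fibrillar collagen, went from 1801 to 889 CPM with E4 (log2 -1.02 ± 0.17, edgeR adjusted p = 0.000525), without overlap of the groups. Col1a1 rose with TAM from 444 to 747 CPM (log2 0.75 ± 0.16, edgeR adjusted p = 0.0231), as did Col1a2. With E2, Comp and Sparc fell. TAM exceeded E4 in Col1a1, Col1a2, Col3a1 and Sparc, by 0.88 to 1.33 on the log2 scale. Among 7 tested ADAMTS-like and related genes, Adamtsl4 fell with E2 and with E4, Adamtsl3 fell with E4, and Adamtsl2 rose with E4 and with TAM. Without C5 and C35, Adamtsl2 with E4 (0.44) and Col1a2 with TAM (0.57) no longer passed, and the other matrix and ADAMTS-like genes named here still did.

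Marker lists moved with several of these results. With the B cell list as a covariate none of the 16 genes passed for E4 against vehicle and neither gene for TAM against vehicle (11 and 7 members had an unadjusted p under 0.05). With the ganglion list 11 of 16 still passed for E4 against vehicle, and with the macrophage list 9 of 16 did, and 4 of 9 for TAM against E2. With the macrophage list, 3 of the 7 genes that changed with E2 still passed: Mmp3 (log2 0.79, edgeR adjusted p = 0.0472), Adam11 (-0.88, edgeR adjusted p = 0.00894) and Adamts19. In the same fit Mmp19 was at -0.03, Timp1 at -0.16, Timp3 at 0.07 and Mmp10 at 0.98, and none of these passed (edgeR adjusted p = 0.876, 0.663, 0.836 and 0.228). For E4 against E2 no member passed in that fit, and 10 had an unadjusted p under 0.05. The macrophage sums of the E2 libraries overlapped with neither the E4 nor the TAM libraries, and with the vehicle libraries only through C5, so in the comparisons with E2 list and treatment cannot be told apart. With the fibroblast list, of which 4 of 8 markers were lower with E4 than with E2, 4 of 15 genes still passed for E4 against E2 (Mmp3, Mmp19, Timp4 and Adamts19). In that fit all 7 genes passed for E2 against vehicle, whereas 1 of 16, Adam1a, passed for E4 against vehicle: Adamts10 was then at -0.44 (edgeR adjusted p = 0.0623), Adam33 at -0.27 (edgeR adjusted p = 0.269) and Mmp15 at 0.38 (edgeR adjusted p = 0.353). The B cell list (7 of 8 markers lower) and the fibroblast list (5 of 8 lower) also moved with E4 against vehicle. In these fits list and treatment are thus partly confounded, and a lost call does not show that the treatment had no effect. The part of these cells in the results was not tested beyond these fits.

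**Figure D5:**
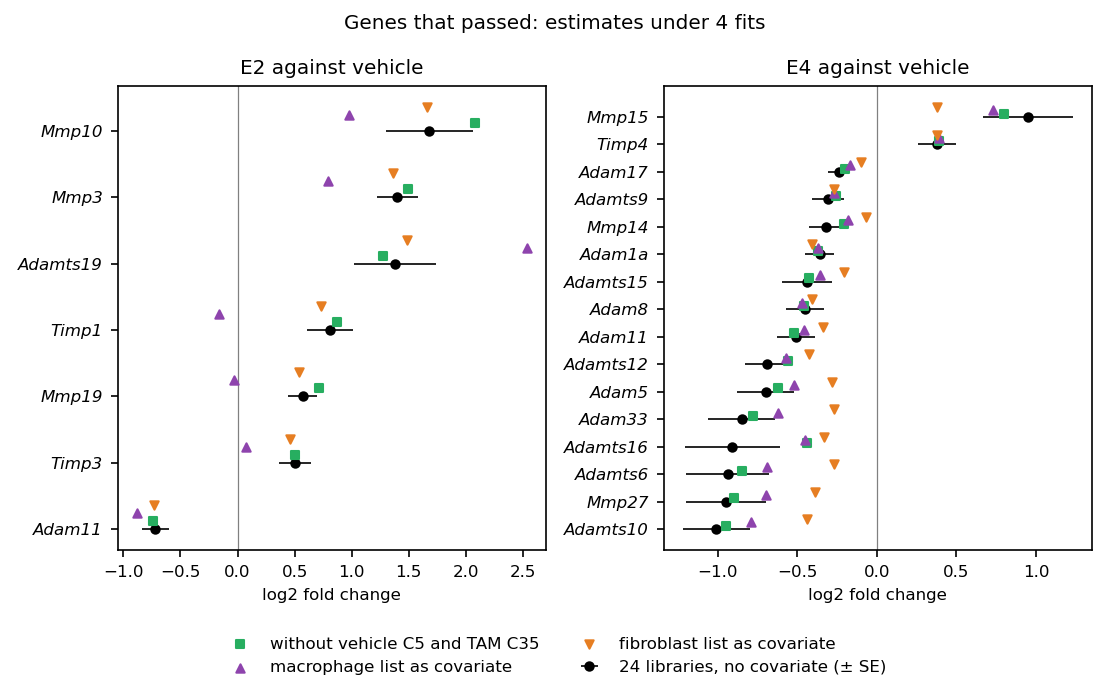
Log2 fold change of the genes that changed with E2 (left) and with E4 (right) against vehicle, in the fit of 24 libraries without a covariate (black, ± SE) and in 3 alternative fits. With the macrophage list as a covariate Mmp19, Timp1 and Timp3 lie near 0 for E2 while Mmp3 (0.79) and Adam11 (-0.88) do not, and with the fibroblast list most E4 estimates lie closer to 0.

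The animal numbers in the titles fall in 2 series, with 4 and 2 vehicle libraries and 3 and 3 libraries of each treatment, and the labels do not say whether the series are batches. Mmp3 rose with E2 in both series, by 1.32 in the first and 1.59 in the second (edgeR adjusted p = 0.0249 and 0.0168). Adam11 fell with E2 by 0.82 in the first series (edgeR adjusted p = 0.0147), and in the second the estimate was -0.61 (edgeR adjusted p = 0.311). For E4 against vehicle, Adamts10 was at -1.18 in the first series and at -0.75 in the second (edgeR adjusted p = 0.0218 and 0.312). Timp4 was higher with TAM than with E2 by 0.89 and 0.85 (edgeR adjusted p = 0.0170 and 0.103), and Mmp19 with E2 than with vehicle by 0.55 and 0.64 (edgeR adjusted p = 0.189 and 0.285). Each of these estimates had the same sign in both series, and the test of a difference between series passed for no gene in any comparison with vehicle (unadjusted p under 0.05 for 2, 6 and 6 of the 58 members with E2, E4 and TAM).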

How the data were processed

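Poly(A) RNA of uninjured carotid arteries was sequenced in 24 libraries (paired reads of 150 bases, stranded kit). Per the labels and methods, the authors trimmed reads with Trim Galore, aligned them with Bowtie2 to mm10 (GRCm38) and counted fragments per Ensembl gene with featureCounts; bcl2fastq was version 2.17, other versions and the strand setting of the counting are not given in the sources used here. The deposited values are estimated counts that are not all whole, and they were rounded here. Counts of 55421 genes were matched to GENCODE M21 (55154 named). Libraries were grouped by title.

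One edgeR 4.0.16 quasi-likelihood fit (TMM scaling, filterByExpr, R 4.3.3) of all 24 libraries gave every comparison, with Benjamini-Hochberg adjustment over 25056 genes; a standard error is the log2 fold change divided by the square root of F. CPM are per TMM-scaled library. The fit was tested on simulated data with changed genes above 1 CPM. It called 28% of 100 genes changed 1.5-fold and 100% of 100 genes changed 3-fold. A gene that did not pass can therefore have changed by about 1.5-fold. No libraries of the same group were duplicates (lowest chi-square per gene 11.8), and pairs across groups were not compared. Depth limits genes under about 0.121 CPM (3 counts in the shallowest library); limits cover counting error only. Named genes were, for each comparison with vehicle, up to 8 and, for each between treatments, up to 5 members with the largest change at 1 CPM or more, plus 16 fixed genes; Mmp10, Adam1a, Adam8, Adamts9, Adamts17 and Adamts19 are named from the role counts. Members and lists were chosen with earlier results of these data known. Alternatives were RLE scaling, other count filters, fewer groups, covariates, leaving out libraries and DESeq2 1.42.0; macrophage and fibroblast covariates were chosen after seeing the data. Promoters are from the RefSeq table (48 of 78 matched). Some genes of the pathway lists are not reported here.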

Additional observations from a re-analysis of the deposited data

Results flagged for a closer look

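In 28 members and 4 marker lists, 15 of 128 groups of 6 libraries held a library whose gap to the nearest other was large against the range of the group. At 1 in 20 about 6.4 would be expected for independent groups of normally distributed values. The groups here share libraries, and most of the 15 come from TAM C35 and vehicle C5, so setting 15 against 6.4 is not a test. TAM C35, with few ganglion transcripts (342 summed CPM against 6925 to 10024), was the highest TAM library for Adam11 (87.8 CPM against 51.9 to 64.0), Adamts1 (230 against 91.5 to 131), Adamts10 (328 against 140 to 208), Mmp17 (55.3 against 28.3 to 35.5) and Timp3 (1458 against 843 to 1008). Vehicle C5, the other library with few ganglion transcripts, was the highest vehicle library for Adamts16 (6.02 CPM against 1.43 to 2.31), Mmp19 (46.5 against 27.7 to 30.6), Mmp9 (14.5 against 5.76 to 8.99) and the macrophage list (958 summed CPM against 534 to 630).

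The other libraries that stood apart were vehicle C4 for Adam11 (88.0 CPM against 61.8 to 70.1), E2 C9 for Adam15 (59.5 against 72.3 to 75.1), TAM C32 for Adamts15 (93.6 against 46.8 to 59.8), E2 C8 for Adamts2 (239 against 161 to 182) and E4 C16 for Adamts6 (14.7 against 9.42 to 10.9). Without TAM C32 the rise of Adamts15 with TAM did not pass, and without E2 C8 neither the lower level of Adamts2 nor that of Adamts6 with E4 than with E2 passed.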

How the results depend on the processing

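Of 1920 values of named members that had passed, 1569 kept direction and call over the alternatives, 339 lost the call and 12 changed sign, and 100 of 5487 values of members that had not passed did so. The counts of 7, 16, 2, 15, 9 and 2 members (E2, E4 and TAM against vehicle, E4 and TAM against E2, TAM against E4) moved by over 1.5 times as follows. In the first series of animal numbers they were 2 (E2), 0 (TAM), 5 (TAM against E2) and 0 (TAM against E4), and in the second 1, 0 (E4 against vehicle), 0 (TAM), 0 (E4 against E2), 1 and 0; members with an unadjusted p under 0.05 then numbered 7 to 17 where the count was 0. With only the 2 groups compared, 1 (TAM), 23 (E4 against E2) and 1 (TAM against E4) passed. Without vehicle C5 and TAM C35, 24 passed for E4 against E2 and 14 for TAM against E2. The ganglion covariate gave 12 (E2), 4 (TAM) and 14 (TAM against E2). The B cell covariate gave 0 for E4 (11 unadjusted) and for TAM (7 unadjusted), 8 for E4 against E2 and 1 for TAM against E4. The macrophage covariate gave 11 (E2, of which 2 rose and 9 fell, with 3 shared with the 7), 4 (TAM) and 0 for E4 against E2 (10 unadjusted), and the fibroblast covariate 14 (E2), 9 (E4, of which 8 rose), 6 (TAM) and 6 (E4 against E2). DESeq2 gave 4 for TAM and 4 for TAM against E4, and no count filter gave 1 for the latter. The cause of these moves was not tested, except that fits of 1 series hold fewer libraries.

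Leaving out 1 library gave 5 to 9, 12 to 19, 0 to 3, 9 to 18, 6 to 10 and 1 to 3 members. The count for E4 against E2 was 9 without E2 C8, and that for TAM against vehicle was 0 without vehicle C3 or TAM C33 and 1 without TAM C32; that for TAM against E4 fell to 1 without any of 16 libraries, since Adamts2 was lost.

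All 12 changes of sign came with the macrophage covariate. For E2 against vehicle these were Mmp19 (-0.03) and Timp1 (-0.16), for TAM against E2 Mmp19 (0.07), Mmp9 (0.51) and Timp1 (0.42), and for E4 against E2 Adam17 (0.03), Adam5 (0.19), Adamts16 (0.65), Adamts2 (0.29), Adamts6 (0.12), Mmp9 (0.58) and Timp1 (0.39).

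No paired analysis was possible because the groups share no animal numbers.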
